A study of Arabidopsis thaliana with 16 samples.

Results

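Shoots of the *cbp20* mutant and of Col-0, the wild type, were compared in air. The aim was to ask how the loss of CBP20 altered transcript levels where no ethylene was added. The comparison took 4 of the 16 libraries of the series, 2 of *cbp20* and 2 of Col-0, and its members were chosen by genotype, tissue and gas alone. All seedlings were 3 days old, etiolated (grown in the dark) and kept in hydrocarbon-free air. They were harvested after 4 h of that air as the control. The ethylene groups cited below were harvested after 4 h of 10 ppm ethylene. Poly(A) RNA was taken from shoots and sequenced from directional libraries. The deposited tables give 1 FPKM value (fragments per kilobase of transcript scaled to the mapped fragments of the library) for the 2 libraries of a group together, so values per library, their SD and a test of the genotypes could not be had. Every difference below is therefore a description of 2 pooled values, with no replicate check. The sources used here name neither the mutant allele nor the read depth of a library.

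CBP20 and CBP80 (the product of *ABH1*) form the nuclear complex that binds the cap of new RNA polymerase II transcripts. In plants this complex is known to take part in splicing and in the processing of microRNA precursors, long transcripts from which a Dicer enzyme cuts the small RNA. Mutants of the complex are known for unprocessed precursors, altered splicing and early flowering. These roles are background, and small RNAs and splicing were not measured by the values used here.

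Of 31133 loci used, 16224 had 1 FPKM or more in both genotypes. Their median level was 15.7 FPKM in Col-0 and 15.5 FPKM in *cbp20*. The log2 ratios of *cbp20* over Col-0 were centred on their median, which lay at -0.03 before centring. After centring, 763 loci (4.7%) were at least 2-fold higher in *cbp20* and 836 loci (5.15%) at least 2-fold lower. The middle of the distribution was narrow, with its lower quartile at -0.29 and its upper quartile at 0.28 on the log2 scale. A further 714 loci reached 1 FPKM in *cbp20* only and 894 in Col-0 only, and most of these were weak, with 74 and 84 of them at 5 FPKM or more. The share past 2-fold depended on the level. It was 10.4% higher and 12.9% lower among 2501 loci with a mean level from 2 to 5 FPKM, and 2.65% and 2.08% among 3703 loci from 20 to 50 FPKM.

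**Figure D1:**
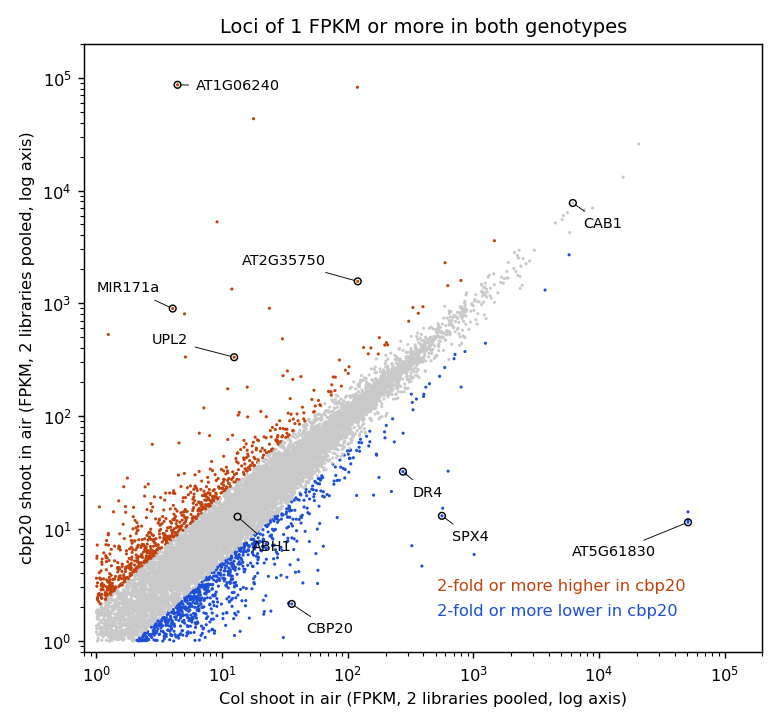
FPKM of each locus in Col-0 shoots (x axis) and cbp20 shoots (y axis) in air, both on log axes, for 16224 loci of 1 FPKM or more in both. Loci at least 2-fold apart after centring are colored (763 higher, 836 lower), and the cloud is widest at low FPKM. CBP20 lies far under the diagonal, ABH1 on it and MIR171a far above it.

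*CBP20* (*AT5G44200*) is listed on chromosome 5 between 17801814 and 17804130 (TAIR10). Its level was 35.8 FPKM in Col-0 and 2.14 FPKM in *cbp20*, 16.5-fold lower in the library group labelled as the mutant. *ABH1*, which encodes the partner subunit, stood at 13.3 FPKM in Col-0 and 12.7 FPKM in *cbp20*. Among 16 loci for cap binding and RNA decay *CBP20* was the single one (6.25%) at least 2-fold lower and 0 were higher. The shares of all loci were 5.15% and 4.7%. The decay exonucleases *XRN2*, *XRN3* and *XRN4* and the nonsense-mediated decay helicase *UPF1* had log2 ratios between -0.28 and 0.07. Of the 10 loci on each side of *CBP20* on the chromosome 15 had 1 FPKM or more in both genotypes. Of these 1 (6.67%) was at least 2-fold higher and 0 were lower, beside 4.7% and 5.15% of all loci. The higher one was *ERF9*, an ERF-family gene, at 2.67 FPKM in Col-0 and 5.76 FPKM in *cbp20*. The neighbor *GLK2*, a regulator of chloroplast development, stood at 57.9 FPKM in Col-0 and 78.6 FPKM in *cbp20*. Over the 5 chromosomes, 4.45% to 5.05% of loci were higher and 4.63% to 5.83% lower.

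The transcripts that carried microRNA precursors were mostly higher in *cbp20*. Of the 164 precursor loci listed, 43 reached 1 FPKM in either genotype, and 24 did so in both. Of these 24 loci 16 (66.7%) were at least 2-fold higher in *cbp20* and 3 (12.5%) at least 2-fold lower, against 4.7% and 5.15% of all loci compared. Their median log2 ratio was 1.53. Another 13 precursors passed 1 FPKM in *cbp20* only, 11 of them listed at 0 in Col-0, and 6 passed it in Col-0 only, 5 of them listed at 0 in *cbp20*. Mature sequences of the precursors that turn up most in what follows are shown here because they decide which mRNAs each family can pair with. They were read from the RefSeq annotation of TAIR10.1, 5′ to 3′, with bases 2 to 8 in capitals.
ath-miR171a-3p: uGAUUGAGccgcgccaauauc
ath-miR171b-3p: uUGAGCCGugccaauaucacg
ath-miR168a-5p: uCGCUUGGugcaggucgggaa
ath-miR167a-5p: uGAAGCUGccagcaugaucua
ath-miR164b-5p: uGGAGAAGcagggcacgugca
ath-miR156c-5p: uGACAGAAgagagugagcac
ath-miR160b: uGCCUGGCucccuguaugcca
ath-miR159b-3p: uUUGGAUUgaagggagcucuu
ath-miR403-3p: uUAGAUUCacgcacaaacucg
ath-miR163: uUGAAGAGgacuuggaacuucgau

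The miR171a and miR171b sequences show the same family with a shifted start, so bases 2 to 8 differ. The miR171c-3p sequence is identical to that of miR171b-3p and the miR156a-5p sequence to that of miR156c-5p. *MIR171a* (*AT3G51375*, chromosome 3, mature arm at 19073521 to 19073541) had the largest ratio of the precursors compared, at 4.05 FPKM in Col-0 and 896.8 FPKM in *cbp20*. *MIR171b* stood at 19.5 FPKM in Col-0 and 60.3 FPKM in *cbp20*, and *MIR171c* at 2.73 and 14.3 FPKM. All precursors of the miR171 family that were compared were thus higher in *cbp20*, by 1.65 to 7.82 on the log2 scale.

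*MIR168a*, which encodes the microRNA that targets *AGO1*, the main effector of microRNAs, stood at 4.54 FPKM in Col-0 and 57.5 FPKM in *cbp20*. *MIR164b*, whose product targets NAC genes such as *CUC1*, stood at 1.06 FPKM in Col-0 and 15.6 FPKM in *cbp20*. *MIR159b* stood at 11.1 and 61.8 FPKM. Of the miR156 family, which holds down SPL genes in young plants, *MIR156a* stood at 13.7 FPKM in Col-0 and 27.1 FPKM in *cbp20* and *MIR156c* at 26.5 and 75.7 FPKM. The joined loci that hold *MIR156b* and *MIR156f* were also higher, by 1.39 and 4.02 on the log2 scale, but each sums a neighboring gene. *MIR160b* and *MIR160c*, whose product targets auxin response factors, were higher by 1.83 and 1.58.

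*MIR167a*, whose product targets *ARF6* and *ARF8*, was at 0.169 FPKM in Col-0 and 15 FPKM in *cbp20*. *MIR403*, which targets *AGO2*, was listed at 0 in Col-0 and stood at 50.4 FPKM in *cbp20*. *MIR166a*, whose product targets class III HD-ZIP genes, was listed at 0 in Col-0 and stood at 154.6 FPKM in *cbp20*. *MIR159a*, *MIR390b*, *MIR396a* and *MIR319a* were likewise listed at 0 in Col-0 and stood at 38.6, 24.3, 32.9 and 7.69 FPKM in *cbp20*. No fold is given for these, since an exact 0 in such a table can be a failed estimate.

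The other direction was seen at fewer loci. *MIR163*, which targets methyltransferase genes, stood at 7.24 FPKM in Col-0 and 2.89 FPKM in *cbp20*. *MIR447b* was at 12.6 FPKM in Col-0 and 1.12 FPKM in *cbp20*, and the joined locus of *MIR863* at 25.4 and 8.06 FPKM. *MIR167b*, *MIR844*, *MIR781a* and *MIR775* were listed at 0 in *cbp20* and stood at 441.1, 142.1, 48.0 and 43.0 FPKM in Col-0. *MIR162a*, whose product targets *DCL1*, and *MIR408*, which targets copper proteins, stayed within 2-fold, with log2 ratios of 0.51 and 0.85. *MIR838* lies in an intron of *DCL1* and shares the range of its locus, and it stood at 3.496 FPKM in Col-0 and 17.9 FPKM in *cbp20*.

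**Figure D2:**
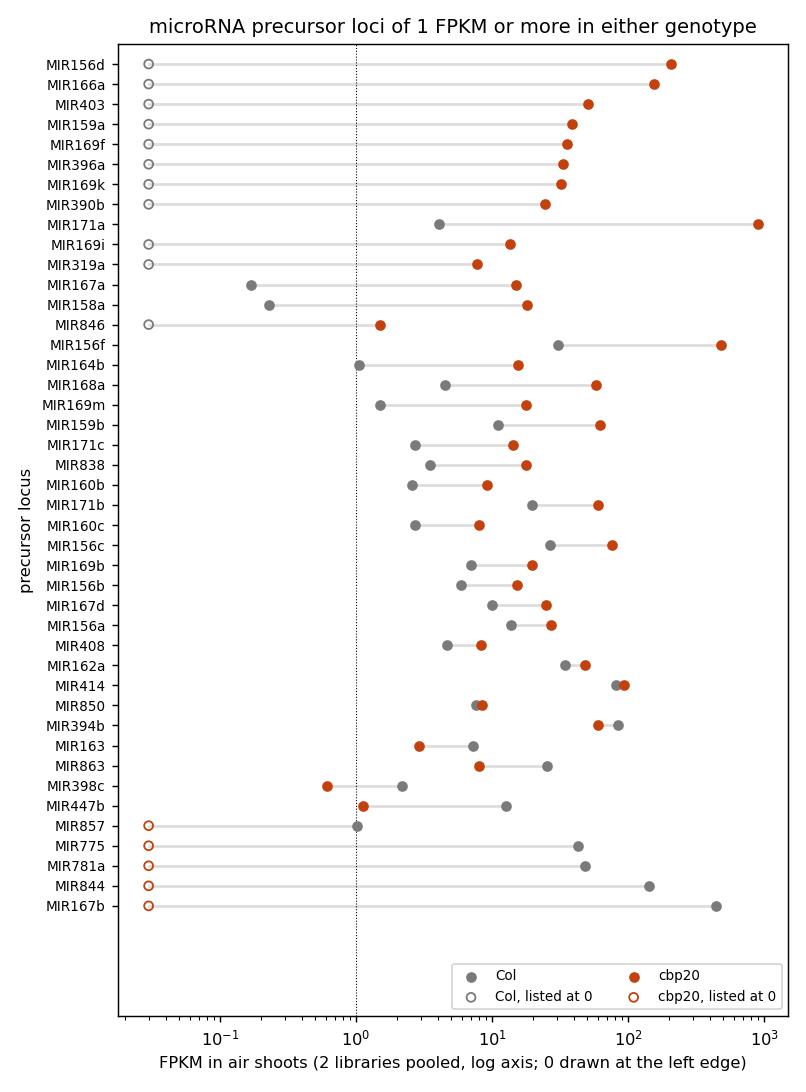
FPKM (log axis) of the 43 microRNA precursor loci of 1 FPKM or more in either genotype, in air shoots of Col-0 (gray) and cbp20 (orange), with open points for loci listed at 0 and a dotted line at 1 FPKM. In 16 of the 24 loci measured in both genotypes the cbp20 point lies at least 2-fold to the right.

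The same precursors could be looked up in other libraries than those of the air shoots, although the air and ethylene values of a genotype came from the same Cuffdiff run. Of the 16 loci higher in air shoots 12 were measured in both genotypes in ethylene, where 9 were again higher and 7 by 2-fold or more. Over all loci of 1 FPKM or more in both genotypes, 5.81% were at least 2-fold higher and 5.52% lower in ethylene shoots, and 4.69% and 3.56% in air roots. In air roots, which came from other tables, 8 of the 16 were measured in both genotypes, and all 8 were at least 2-fold higher in *cbp20*. *MIR168a* reached 108.2 FPKM in *cbp20* air roots against 1.27 FPKM in Col-0. *MIR171a* reached 264.7 FPKM in *cbp20* ethylene shoots against 2.96 FPKM in Col-0, but only 1.53 FPKM in *cbp20* air roots against 0.352 FPKM. *MIR159b* went the other way in ethylene shoots, at 17.58 FPKM in Col-0 and 6.03 FPKM in *cbp20*. Over all 164 precursor loci, *cbp20* stood above Col-0 at 33 loci and under it at 11 in air shoots, at 30 and 7 in ethylene shoots, at 35 and 8 in air roots and at 35 and 8 in ethylene roots.

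Another class of small noncoding RNA had a like count, with 6 of 9 snoRNA loci at least 2-fold higher in *cbp20* and 1 lower, beside 4.7% and 5.15% of all loci. Of 44 loci under 300 bases with no microRNA gene 11 (25%) were at least 2-fold higher and 14 (31.8%) lower. Of 75 ncRNA loci 9 (12%) were higher and 15 (20%) lower. Short and noncoding loci thus passed 2-fold more often than all loci. The part of locus length in the precursor values was not tested.

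The mRNAs listed as targets of conserved microRNAs passed 2-fold in air shoots about as often as all loci. The list was not limited to families with higher precursors. It holds targets of miR393 and miR395, whose listed precursors were at 0 in both genotypes, and 3 targets of a trans-acting siRNA. Of 72 target loci compared 2 (2.78%) were at least 2-fold higher in *cbp20* and 5 (6.94%) at least 2-fold lower. The shares of all loci were 4.7% and 5.15%. The median log2 ratio of the targets was 0.09, with 48 ratios above 0 and 24 below. In ethylene shoots 2 of 69 targets were higher and 3 lower, beside 5.81% and 5.52% of all loci. In air roots 10 of 68 were higher and 1 lower, beside 4.69% and 3.56% of all loci, with a median of 0.21. Sites in a few of the targets are printed 5′ to 3′ to show the pairing. They were found by matching the mature sequence to the mRNAs annotated by RefSeq on TAIR10.1, all lie in coding sequence, and capitals mark bases that do not pair by Watson-Crick rules.
HAM1: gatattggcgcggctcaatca
AGO1: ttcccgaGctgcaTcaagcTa
ARF8: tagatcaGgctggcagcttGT
ARF17: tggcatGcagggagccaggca

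The site of *HAM1* (chromosome 2, 18619128 to 18619148, minus strand) has 0 unpaired bases with miR171a-3p, and *HAM2* and *HAM3* carry the identical site. Where *MIR171a* was listed 226-fold higher, *HAM1* stood at 14.1 FPKM in Col-0 and 12.5 FPKM in *cbp20*, *HAM2* at 17.8 and 21.3 FPKM and *HAM3* at 19.2 and 17.5 FPKM. These GRAS-family genes maintain meristems, and their log2 ratios lay between -0.15 and 0.29. *AGO1*, whose site for miR168a has 3 unpaired bases, was at 47.1 FPKM in Col-0 and 47.9 FPKM in *cbp20*. The auxin response factors *ARF6* and *ARF8* stood at 34.7 and 34.6 FPKM and at 22.9 and 25.3 FPKM. *ARF17*, a target of miR160, was at 4.65 and 4.76 FPKM.

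A few targets lay past 2-fold. *AGO2*, an antiviral Argonaute and the target of miR403, stood at 8.20 FPKM in Col-0 and 17.1 FPKM in *cbp20*, and was also higher in ethylene shoots by 0.78 and in air roots by 1.24 on the log2 scale. The growth factor gene *GRF9*, a target of miR396, was at 1.19 and 5.74 FPKM, with the opposite order in ethylene shoots. *SPL11* was at 57.9 FPKM in Col-0 and 4.26 FPKM in *cbp20*, but at 3.12 and 3.04 FPKM in ethylene shoots and at 2.28 and 89.8 FPKM in air roots, so that its high values were in a single group each time. The laccase genes *LAC2* and *LAC12*, the sulfurylase gene *APS3* and *NF-YA10* were lower by 1.53, 1.31, 1.204 and 1.04 on the log2 scale. The 4 targets of miR164 compared were all above 0, at up to 0.94, and none passed 2-fold.

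The transcripts from which trans-acting siRNAs are made did not move together. *TAS1A* was at 20.6 FPKM in Col-0 and 6.34 FPKM in *cbp20*, and *TAS2* at 22.4 and 7.33 FPKM. *TAS3*, which gives rise to siRNAs against auxin response factors, was at 28.4 FPKM in Col-0 and 47.8 FPKM in *cbp20*. In ethylene shoots the log2 ratios of *TAS1A* and *TAS2* were 0.24 and 0.50, so the lower values were not seen there. In air roots *TAS1A* was again lower, at 22.3 and 4.29 FPKM, and *TAS2* stood at -0.43. *TAS1B* was at 4.51 FPKM in Col-0 and 0.766 FPKM in *cbp20* in air shoots. Of 19 genes for the proteins of the microRNA and siRNA pathways 1 (5.26%), *AGO2*, was at least 2-fold higher and 0 were lower. The shares of all loci were 4.7% and 5.15%. *DCL1*, the Dicer that cuts microRNA precursors, stood at 4.06 and 4.51 FPKM, its partner *HYL1* at 4.37 and 3.93 FPKM and *SE* at 19.5 and 17.1 FPKM.

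**Figure D3:**
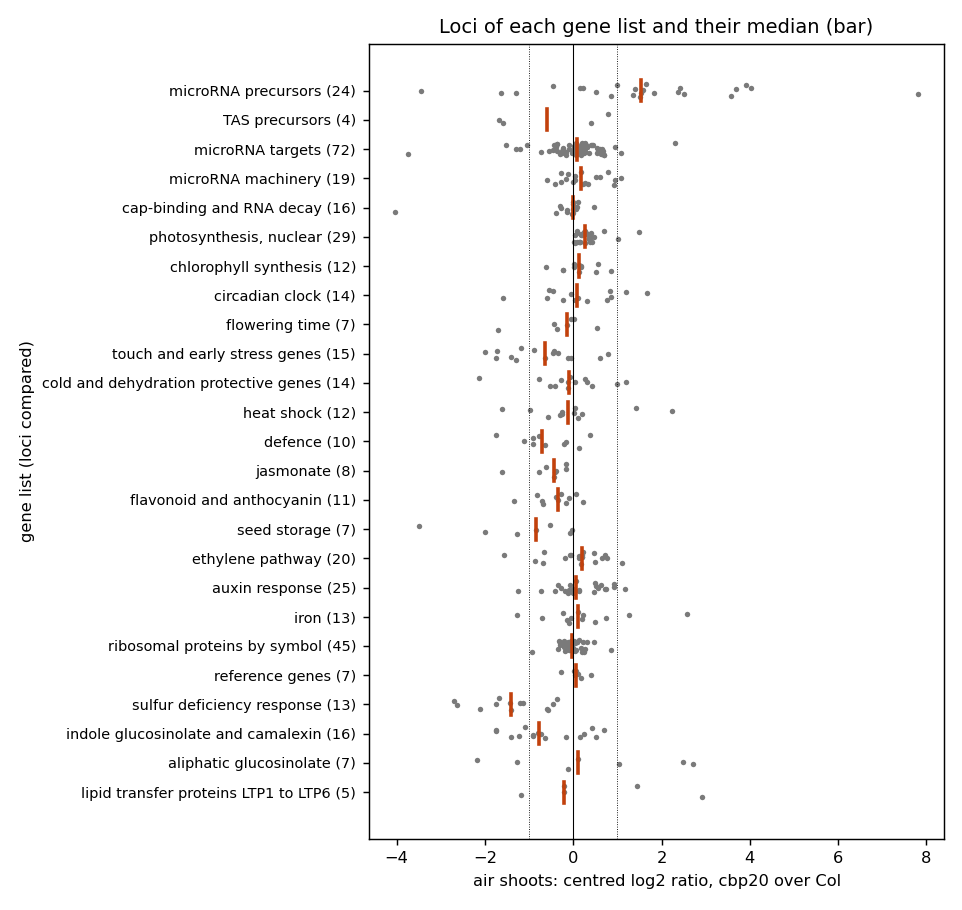
Centred log2 ratios of cbp20 over Col-0 in air shoots for the loci of 25 gene lists, each point a locus and each bar the median of its list, with dotted lines at 2-fold. The bar of the microRNA precursors is at 1.53, and those of microRNA targets at 0.09, reference genes at 0.06 and sulfur deficiency genes at -1.42. The lists for sulfur deficiency, indole and aliphatic glucosinolates and lipid transfer proteins were chosen after values of their genes had been seen. Their bars describe that choice.

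Regulators of flowering time were chosen because mutants of the cap-binding complex are known to flower early. *FLC* is the MADS-box repressor that delays flowering. *FLC* stood at 20.1 FPKM in Col-0 and was listed at 0 in *cbp20*. The other groups showed the same order, with 22.8 and 0.0892 FPKM in ethylene shoots, 27.5 and 0.0180 FPKM in air roots and 29.3 and 0 FPKM in ethylene roots. Its relative *FLM*, which also represses flowering, was at 43.5 FPKM in Col-0 and 13.1 FPKM in *cbp20*, and lower in ethylene shoots and air roots by 2.00 and 1.66 on the log2 scale. The joined locus of *MAF2* to *MAF5*, further relatives, was at 78.2 and 59.4 FPKM. *FT*, which promotes flowering, was at 0.548 FPKM in Col-0 and 1.49 FPKM in *cbp20*. Genes of the autonomous pathway that hold *FLC* down (*FCA*, *FY* and *FLD*) lay between -0.15 and 0.02. Of 7 flowering loci compared 1 (14.3%) was at least 2-fold lower and 0 were higher, beside 5.15% and 4.7% of all loci.

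A few clock genes differed between the genotypes. *LHY*, a morning-expressed MYB factor, stood at 17.35 FPKM in Col-0 and 54.2 FPKM in *cbp20*, and its partner *CCA1* at 17.8 and 31.4 FPKM. *RVE1*, a related factor, was at 10.15 and 22.8 FPKM. *ELF4*, a member of the evening complex, was at 54.3 FPKM in Col-0 and 17.7 FPKM in *cbp20*, and *LUX* and *TOC1*, also of the evening, were at -0.60 and -0.45 on the log2 scale. *LHY*, *CCA1*, *RVE1* and *ELF4* kept these directions in ethylene shoots, with 1.70, 1.77, 1.72 and -1.05. Of 14 clock loci 2 (14.3%) were at least 2-fold higher and 1 (7.14%) lower, beside 4.7% and 5.15% of all loci.

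Nuclear genes of photosynthesis were shifted by a small amount. All 29 loci compared were above 0, with a median log2 ratio of 0.27, while 2 of them (6.90%) passed 2-fold, beside 4.7% of all loci, and 0 were lower by that much. Without centring 1 passed it, since the joined locus of *CAB2* and *CAB3* lay just at the limit. *LHB1B1*, which encodes a chlorophyll-binding protein of the photosystem II antenna, stood at 330.3 FPKM in Col-0 and 915.4 FPKM in *cbp20*. The joined locus of *CAB2* and *CAB3*, of the same family, was at 796.0 and 1591 FPKM. The most abundant locus of the list, *CAB1*, was at 6192 and 7757 FPKM. In ethylene shoots the median was 0.43 and in air roots 1.22, where 20 of the 29 were at least 2-fold higher, beside 4.69% of all loci. Of the genes for chlorophyll synthesis 0 of 12 passed 2-fold, and *PORA* and *PORB*, which reduce protochlorophyllide in light, stood at -0.23 and -0.61. *HYH*, a light-signaling bZIP factor, was at 19.5 and 39.0 FPKM.

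Part of the early stress genes were lower in *cbp20*. Of 15 loci of the touch and early stress list 6 (40.0%) were at least 2-fold lower in *cbp20* and 0 were higher, beside 5.15% and 4.7% of all loci, with a median log2 ratio of -0.64. The other 9 stayed within 2-fold, 2 of them above 0, and with 5 FPKM or more in both genotypes 3 in place of 6 were lower. The zinc-finger gene *ZAT10* stood at 33.4 FPKM in Col-0 and 8.21 FPKM in *cbp20*, and *ZAT12* at 44.9 and 17.8 FPKM. *DREB2A*, a drought and heat regulator, was at 49.7 and 18.3 FPKM. *ERF5*, the calmodulin-like gene *CML38* and *WRKY40* were lower by 1.74, 1.74 and 1.19 on the log2 scale. In ethylene shoots 0 of 13 loci of this list were at least 2-fold lower and 1 was higher, beside 5.52% and 5.81% of all loci. The values of *ZAT10* there were 11.2 and 9.16 FPKM. *DREB2A* stood at 3.22 and 1.83 FPKM there. For *ZAT10*, *ZAT12* and *DREB2A* the Col-0 air value was the highest of the 4 shoot values.

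The protective genes downstream were mixed. The joined locus of *KIN1* and *KIN2*, cold-induced genes, was at 798.9 FPKM in Col-0 and 180.0 FPKM in *cbp20*, and lower in ethylene shoots by 1.37. *EM6*, a late embryogenesis abundant gene, was at 21.9 and 49.5 FPKM and higher in ethylene shoots by 2.55. *RD29A*, *RD29B* and *RAB18*, known for their response to abscisic acid and drought, lay at -0.52, -0.11 and 0.99. Of 14 loci of the list 1 (7.14%) was higher and 1 (7.14%) lower by 2-fold, beside 4.7% and 5.15% of all loci. In the abscisic acid list of 22 loci 1 (4.55%) was higher (*ABI3*) and 1 (4.55%) lower (*HAI2*), close to those shares. Of 12 heat shock loci 2 (16.7%) were higher and 1 (8.33%) lower, the last being *MBF1C*, a heat-responsive coactivator, at 198.1 and 63.8 FPKM. *HSFA2*, a heat stress factor, was at 7.53 FPKM in Col-0 and 0.782 FPKM in *cbp20*.

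Few defense and jasmonate genes passed 2-fold. Of 10 defense loci 2 (20%) were at least 2-fold lower, and of 8 jasmonate loci 1 (12.5%), beside 5.15% of all loci. With 5 FPKM or more in both genotypes these counts were 1 and 0. The ratio lay under 0 at 8 of the defense loci and at all 8 jasmonate loci. *PAD3*, the last enzyme of camalexin synthesis, stood at 10.7 FPKM in Col-0 and 3.13 FPKM in *cbp20*, and the defensin gene *PDF1.1* at 101.1 and 45.7 FPKM. *JAZ7*, a jasmonate repressor, was at 7.20 and 2.30 FPKM. *PAL1*, the entry enzyme of phenylpropanoid synthesis, was at 124.3 and 48.5 FPKM and also lower in ethylene shoots and air roots, by 1.31 and 1.61. Of the remaining 10 flavonoid loci none passed 2-fold.

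A further 4 lists were chosen after values of these genes had been seen, so their counts describe the choice and support nothing. In the list for indole glucosinolates and camalexin 5 of 16 loci were at least 2-fold lower. *CYP79B3*, which makes the oxime from tryptophan, stood at 65.2 FPKM in Col-0 and 19.1 FPKM in *cbp20*, *CYP83B1*, the next enzyme, at 117.7 and 49.4 FPKM, and *CYP81F4*, which modifies the indole ring, at 92.2 and 34.1 FPKM. The regulator *MYB51* was at 22.9 and 10.6 FPKM. The log2 ratios of these genes in ethylene shoots were close to those in air, from -1.77 to -1.29, but in air roots they lay between -0.77 and -0.08.

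The aliphatic glucosinolate genes split in the air shoots. The joined locus of *MAM1* and *MAM3*, which lengthen the side chain of methionine, was at 1.96 FPKM in Col-0 and 12.7 FPKM in *cbp20*, and *IMD1*, an enzyme of the same cycle, at 2.80 and 15.5 FPKM. *IPMI2*, of this cycle too, was at 0.252 and 4.203 FPKM and *CYP83A1* at 0.0325 and 1.37 FPKM. The sulfotransferase genes *SOT17* and *SOT18*, which act at the last step of the core, were lower, at 10.9 and 2.38 FPKM and at 10.4 and 4.202 FPKM. *MAM1* and *MAM3*, *IMD1* and *IPMI2* were higher in air roots too, by 3.49, 3.64 and 4.03 on the log2 scale, while *SOT17* and *SOT18* stood there at -0.17 and -0.12.

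Genes known for their induction by sulfur deficiency were low in *cbp20*, with 9 of 13 loci at least 2-fold lower and a median log2 ratio of -1.42. *LSU1*, *LSU2* and *LSU3* (response to low sulfur) stood at 27.0, 33.8 and 41.1 FPKM in Col-0 and at 6.18, 10.4 and 12.03 FPKM in *cbp20*. *BGLU28*, a beta-glucosidase gene, was at 8.39 and 1.27 FPKM, and *GGCT2;1*, of glutathione breakdown, at 14.4 and 2.29 FPKM. *APR3*, an adenylylsulfate reductase, was at 80.4 and 29.6 FPKM. In ethylene shoots 2 of 11 loci were at least 2-fold lower and 1 was higher, and the median was -0.74. In air roots the median was 0.09. The lipid transfer gene *LTP4* was at 30.6 FPKM in Col-0 and 227.5 FPKM in *cbp20* and *LTP3* at 102.5 and 272.8 FPKM, both higher in ethylene shoots as well, by 4.67 and 2.92. The joined locus of *LTP1* and *LTP2*, among the most abundant in shoots, was at 15559 and 13146 FPKM.

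**Figure D4:**
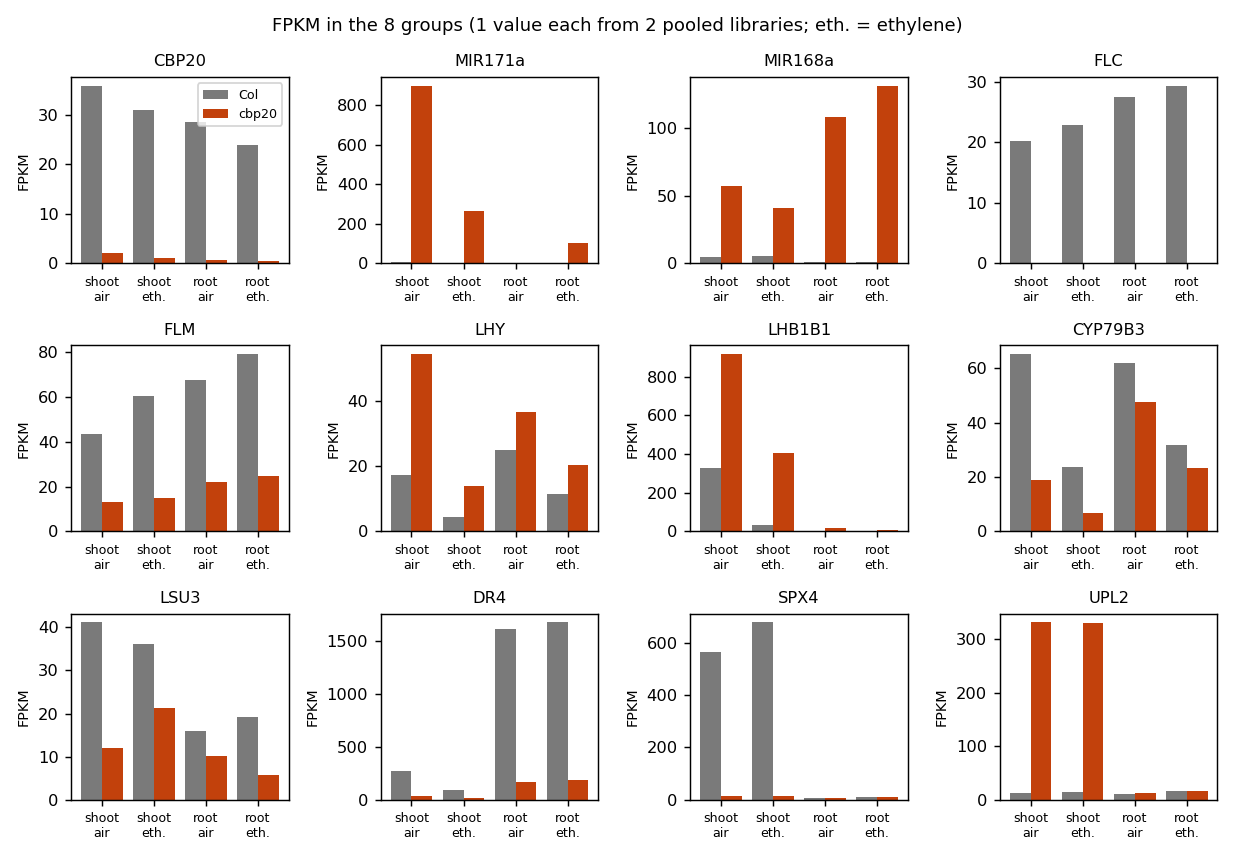
FPKM (y axis, from 0, scaled for each gene) of 12 genes in the 8 groups of the series, Col-0 in gray and cbp20 in orange, each bar 1 value from 2 pooled libraries with no error. CBP20, FLC and FLM were lower in cbp20 in all 4 pairs and MIR168a was higher in all 4, whereas SPX4 and UPL2 stood apart in shoots only.

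Seed storage transcripts are remnants of the embryo in a young seedling. Of 7 loci compared 3 (42.9%) were at least 2-fold lower, beside 5.15% of all loci, and the median log2 ratio was -0.83. With 5 FPKM or more in both genotypes 1 was lower. The albumin gene *SESA5* stood at 13.9 FPKM in Col-0 and 1.22 FPKM in *cbp20* and the cruciferin gene *CRU3* at 39.2 and 9.57 FPKM. In ethylene shoots, where levels were lower in both genotypes, 0 of 4 loci compared were at least 2-fold lower, beside 5.52% of all loci. *SESA5* was not among these 4, since it stood there at 2.80 FPKM in Col-0 and 0.988 FPKM in *cbp20*, under the minimum. In air roots 5 of 5 loci compared were at least 2-fold lower, beside 3.56% of all loci. *MLS*, malate synthase of the glyoxylate cycle, was at 141.4 and 65.8 FPKM, and its companion *ICL* was at 948.6 and 678.6 FPKM.

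The ethylene pathway was chosen because the seedlings of the series were compared for their ethylene response. The receptors *ETR1* and *ERS1*, the kinase gene *CTR1*, *EIN2* and the transcription factors *EIN3* and *EIL1* had log2 ratios from 0.13 to 0.46, within 2-fold. *EIN3* stood at 78.5 FPKM in Col-0 and 84.7 FPKM in *cbp20*. *ACS6*, which makes the precursor of ethylene, was at 36.7 and 12.1 FPKM, and lower in ethylene shoots by 1.59. *ARGOS*, a growth gene that ethylene induces, was at 44.7 FPKM in Col-0 and 94.0 FPKM in *cbp20*, and at 311.0 and 352.7 FPKM in ethylene shoots. Of 20 loci of the pathway 1 (5%) was higher and 1 (5%) lower by 2-fold, close to the 4.7% and 5.15% of all loci. The auxin list gave 1 (4%) and 1 (4%) of 25. The gibberellin and brassinosteroid list gave 1 (4.76%) and 0 of 21, and the expansin and XTH list 0 and 1 (5.88%) of 17. In the iron list 2 of 13 loci (15.4%) were higher and 1 (7.69%) lower, beside 4.7% and 5.15% of all loci. These counts leave out loci under 1 FPKM in a genotype. Of 24 ethylene pathway loci of 1 FPKM or more in either genotype 4 reached it in *cbp20* only, and of 16 iron loci 3. In both lists 0 reached it in Col-0 only. Over all 17832 such loci 714 reached it in *cbp20* only and 894 in Col-0 only. The joined locus of the transporter gene *IRT1* stood at 2.53 and 14.7 FPKM, and *NAS1* was lower, at 29.7 and 12.1 FPKM.

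Ribosomal protein and reference loci stayed within 2-fold. Of 45 ribosomal protein loci and 7 reference loci 0 were past 2-fold, and *UBQ10* stood at 1471 and 1458 FPKM and *ACT2* at 735.8 and 751.9 FPKM. Of 17 histone loci 1 (5.88%) was at least 2-fold higher and 0 were lower. The higher one was *HTR12*, the centromeric histone, at low values of 1.25 FPKM in Col-0 and 2.85 FPKM in *cbp20*. The root markers were low and level in the shoot samples, with 0 of 9 past 2-fold and 5.73 and 5.39 FPKM for the root hair gene *EXPA7*, although the endodermal *CASP1* was at 183.2 and 203.0 FPKM. Shoot markers were present, with the meristem gene *KNAT1* at 62.7 and 68.9 FPKM and the epidermal *ATML1* at 39.8 and 40.5 FPKM, while *WUS* was listed at 0 in both. Of 10 shoot marker loci 1 (10%) was at least 2-fold higher and 1 (10%) lower, beside 4.7% and 5.15% of all loci. The higher one was the joined locus of *CAB2* and *CAB3*, and the lower one the leaf gene *AS1* at 42.0 and 20.3 FPKM. Fewer cells of a type and less RNA per cell cannot be told apart in whole shoots.

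By a rule of size, 12 genes were named each way among single-gene loci of at least 5 FPKM in the higher genotype in air. They were at least 2-fold apart the same way in air and in ethylene shoots, out of 236 higher and 230 lower. No FPKM minimum was set in ethylene, so some of these ratios rest on values near 0. There *AT4G28405* and *EMB3119* were close to 0 and *QQS* under 1 FPKM in Col-0. *CBP20*, *SESA5* and *AT1G60740* were under 1 FPKM in *cbp20*. *MIR171a* led the higher genes and *MIR168a* was among them. *AT2G35750*, at 120.2 FPKM in Col-0 and 1563 FPKM in *cbp20*, had the highest level in *cbp20* of the 12. *QQS*, an orphan gene known to affect starch, stood at 2.44 FPKM in Col-0 and 23.4 FPKM in *cbp20*, with 0.0744 and 12.3 FPKM in air roots. *DSEL*, a lipase gene of seedlings, was at 7.96 and 66.8 FPKM, and higher in air roots by 2.68. The ncRNA gene *AT2G07042* was at 1.65 and 23.5 FPKM, higher in air roots by 4.32. *AT1G27610*, *AT1G53633*, *AT4G28405* and *EMB3119* also followed the rule. They had 1.37, 1.70, 2.59 and 2.42 FPKM in Col-0 and 14.1, 15.7, 24.8 and 19.4 FPKM in *cbp20*. In air roots *AT2G35750*, *AT1G27610* and *EMB3119* stood at -0.36, -0.15 and -0.53 on the log2 scale, so they were not higher there. The snoRNA gene *AT3G50825* was at 11.97 and 1336 FPKM, while the next of its 8 values was 102.1 FPKM. The *cbp20* air shoot values of *MIR171a* and *AT3G50825* were both at least 100 times the median of the 8 groups.

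*UPL2*, a HECT ubiquitin ligase gene, stood at 12.5 FPKM in Col-0 and 331.5 FPKM in *cbp20*, with 13.5 and 331.1 FPKM in ethylene shoots. In roots its 4 values lay between 11.4 and 17.1 FPKM. The phosphate-signaling gene *SPX4* was the mirror of this, at 562.2 FPKM in Col-0 and 13.0 FPKM in *cbp20* in air shoots and between 6.19 and 9.001 FPKM in roots. In both genes the shoot values of 1 genotype lay far above the other 6 values, and these 2 shoot values came from a single Cuffdiff run.

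Of the lower genes, *CBP20* was the sixth by its ratio. *AT3G29970* was at 30.7 FPKM in Col-0 and 1.08 FPKM in *cbp20*, and lower in air roots by 4.27. *DR4*, a drought-repressed gene, stood at 275.0 FPKM in Col-0 and 32.0 FPKM in *cbp20*, and at 1615 and 168.5 FPKM in air roots. *GSTU25*, a glutathione transferase gene, was at 22.3 and 2.53 FPKM. *AT4G39170* was at 629.8 and 32.3 FPKM, *AT5G04120* at 288.9 and 30.6 FPKM, *AT4G17470* at 57.5 and 3.25 FPKM, *AT1G60740* at 44.0 and 3.29 FPKM and *AT3G15650* at 12.4 and 1.59 FPKM. In air roots *AT5G04120* and *AT3G15650* stood at 0.07 and 1.45, so they were not lower there. *AT5G61830* led by its ratio, but it stood at 51119 FPKM in Col-0 air shoots, while the next of its 8 values was 163.9 FPKM.

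Among the largest ratios without the condition on ethylene, several also had 1 value far above the rest. *AT1G06240* stood at 4.42 FPKM in Col-0 and 86814 FPKM in *cbp20*, *AT1G47330* at 17.8 and 43419 FPKM and the lignin gene *4CL1* at 119.5 and 82580 FPKM. Their values in ethylene shoots were 3.32 and 3.27 FPKM, 17.2 and 17.2 FPKM and 97.3 and 97.4 FPKM, so the genotypes were level there. *AT2G02410* stood at 9.12 and 5272 FPKM, and at 12271 and 2.09 FPKM in air roots. *AT5G45740* was high in *cbp20* in 3 groups, at 527.7, 234.1 and 187.2 FPKM in air shoots, ethylene shoots and air roots, beside 1.24 FPKM in Col-0 air shoots and 0 in the other Col-0 groups. In the other direction *AT5G02940*, *AT5G17570*, *AT3G46960* and *AT1G63420* stood at 51082, 1015, 389.6 and 323.7 FPKM in Col-0 and at 14.1, 5.88, 4.64 and 7.03 FPKM in *cbp20*. Of these *AT3G46960* differed in kind, since the *cbp20* air shoot value was its low one and the remaining 7 values lay between 56.9 and 893.1 FPKM. Among loci under 1 FPKM in a genotype the highest values were *SCRL23* at 156257 FPKM in *cbp20* and 0 in Col-0, *BGLU3* at 76610 FPKM in Col-0 and 0 in *cbp20*, and *MORF4* at 56181 FPKM in Col-0 and 0.898 FPKM in *cbp20*. The 3 remaining highest in *cbp20* beside *MIR156d* were the snoRNA or tRNA genes *AT1G03935*, *AT2G07762* and *AT5G66562*, and in Col-0 *AT1G63390*, *ACA3* and *AT1G45236*. A value of at least 100 FPKM that was at least 100 times the median of the 8 groups occurred, in any group, at 24 of the compared loci.

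**Figure D5:**
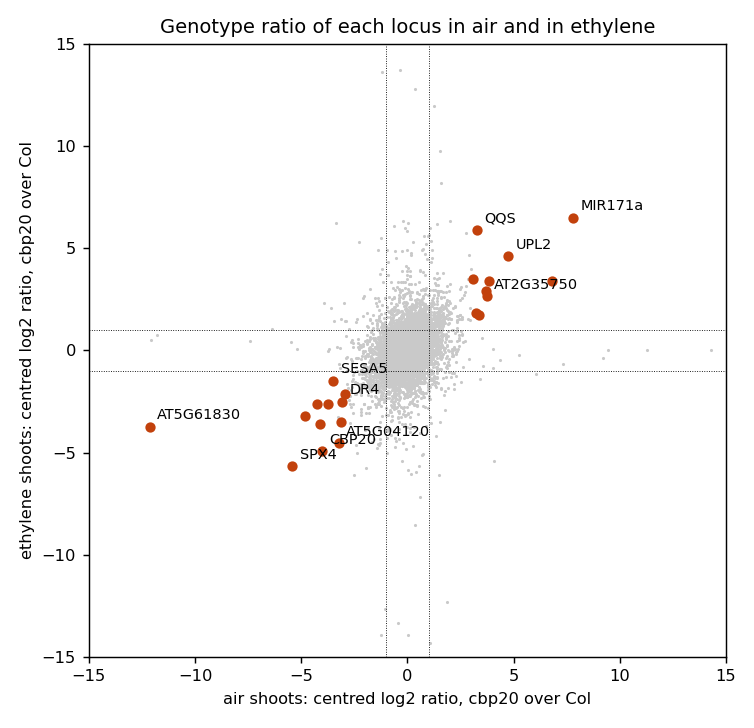
Centred log2 ratio of cbp20 over Col-0 in air shoots (x axis) and in ethylene shoots (y axis) for each locus of 1 FPKM or more in both genotypes in air, with dotted lines at 2-fold. The orange points are the genes named by the rule, of which AT4G28405 and EMB3119 are not drawn because Col-0 was close to 0 in ethylene.

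Across loci the genotype gap in air was met again in part in other libraries. Of 635 loci higher in air and measured in ethylene shoots 481 (75.7%) had the same sign and 248 (39.1%) were at least 2-fold higher there, while 37 were at least 2-fold lower. Among all loci measured in both gases 5.66% were at least 2-fold higher in ethylene. Of 681 lower loci 505 (74.2%) had the same sign and 229 (33.6%) were at least 2-fold lower, beside 5.16% of all. In air roots 164 of 637 higher loci (25.7%) and 145 of 677 lower loci (21.4%) were past 2-fold the same way, beside 4.28% and 2.86% of all. Over 15271 loci the log2 ratios in air and ethylene shoots had a Pearson r of 0.34, a description across loci that share genotype lines and Cuffdiff runs.

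The share of genes past 2-fold was compared by intron number. Of 2162 protein-coding genes with 0 introns 7.63% were at least 2-fold higher in *cbp20* and 9.67% lower, and of 1921 genes with 11 or more introns 2.86% and 2.13%. At 10 FPKM or more in both genotypes the shares were 3.54% and 3.63% without introns and 1.53% and 0.58% with 11 or more. In the classes between, at that level, 1.56% to 1.81% were higher and 0.42% to 2.50% lower, so among higher genes the intronless class alone stood above the rest. Median log2 ratios lay between -0.03 and 0.03 in every intron class at 1 FPKM or more. Splicing itself was not measured here, since a locus has a single value.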

How the data were processed

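Shoots of 3-day-old etiolated seedlings were sequenced, with 2 libraries per group, and per the labels replicate 1 of each air shoot group was run on lane 5 and replicate 2 on lane 6. The authors aligned reads to TAIR10 with TopHat2 2.0.9 and deposited 4 Cuffdiff 2.2.1 tables, each holding air and ethylene FPKM of a genotype and tissue as 1 pooled value per group. These tables were normalized separately. The authors' own log2 ratio and p-value columns, which compare ethylene with air, were not used.

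Of 35814 loci, 1729 without a gene name and 2952 with a repeated name were left out, 1632 of the 31133 used join several genes, and loci of both genotypes were matched on gene and position. The unnamed loci held 84.0% and 86.2% of the summed FPKM of Col-0 and *cbp20*. All chloroplast (130) and mitochondrial (141) loci were listed at 0 in air shoots. Log2 ratios were centred on the median of loci of 1 FPKM or more in both, and 2-fold was the limit. No test was possible. Symbols (29360 of 33989 names matched), introns and microRNA sequences came from RefSeq TAIR10.1, and 25497 of 25498 single-gene loci overlapped its gene spans. Ratios, tested on simulated data, were computed in Python 3.11.15 with pandas 2.3.3.

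Genes were named by rule: the 12 highest and 12 lowest ratios past 2-fold in both gases, the 5 highest and lowest with no condition on ethylene, the 5 highest in FPKM in a single genotype each way, *CBP20*, *ABH1* and the neighbors of *CBP20*, and list members past 2-fold or most abundant. The condition on ethylene had no FPKM minimum. Further members are named for their role. Members and lists were chosen with earlier results of these data known, and 4 lists after their values were seen. The alternatives changed the FPKM minimum, pseudocount, centring, fold limit, repeated names, joined loci and values far above the other groups.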

Additional observations from a re-analysis of the deposited data

Results flagged for a closer look

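Named genes whose genotype gap in shoots was at least 2-fold one way in air and at least 2-fold the other way in ethylene were picked out. The difference between the gases was not tested, since each group is a single pooled value. Of the 15271 loci measured in both genotypes in air and in ethylene shoots, 78 reversed in this way. These were 37 of the 635 loci at least 2-fold higher in air and 41 of the 681 at least 2-fold lower. *MIR159b* had a log2 ratio of 2.50 in air and -1.52 in ethylene, and *MIR447b* -3.46 and 1.46. *GRF9* had 2.30 and -1.26. *APR1*, an adenylylsulfate reductase gene, had -1.14 and 3.32, with 27.3 and 12.2 FPKM in air and 1.68 and 16.6 FPKM in ethylene. *LTP6* had -1.19 and 1.22 and *HTR12* 1.22 and -1.06. *AT3G46960* had -6.37 and 1.03, from 389.6 and 4.64 FPKM in air and 443.9 and 893.1 FPKM in ethylene.

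Loci without a gene name were not used in the comparison. Of 105 such loci with 1 FPKM or more in both genotypes 26 (24.8%) were at least 2-fold higher in *cbp20* and 17 (16.2%) at least 2-fold lower. Among the 16224 loci compared these shares were 4.7% and 5.15%.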

How the results depend on the processing

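The 763 higher and 836 lower loci became 323 and 295 with 5 FPKM or more in both genotypes, 1542 and 1768 with any FPKM above 0, 1284 and 1515 with a pseudocount of 0.1 and 1 FPKM in either genotype, 1925 and 1992 at 1.5-fold, and 230 and 283 at 3-fold. They stayed within 1.5 times with a pseudocount of 1, without centring, with centring over loci of 10 FPKM or more, with repeated names kept, and without joined loci or values far above the other groups. For microRNA precursors 16 higher and 3 lower loci became 8 and 1 with 5 FPKM in both, and 28 and 7 with a pseudocount of 1 and 1 FPKM in either. Leaving out joined loci or far values, chosen after the data were seen, kept both counts within 1.5 times. For microRNA targets 2 higher and 5 lower became 1 and 0 with 5 FPKM in both. Of 66 counts of list members 19 changed by over 1.5 times with 5 FPKM in both, 18 with a pseudocount of 1 and 4 without centring. Of 118 named genes all kept their direction without centring and with a pseudocount of 1. Most were picked for being past 2-fold, so this was nearly fixed in advance. The size of each ratio was set beside the spread between air and ethylene ratios at that FPKM level. Without centring all 118 stayed within this spread. With a pseudocount of 1, 6 moved by more, among them *MIR164b* (3.91 to 3.03), *MIR169m* and *MIR447b*. No paired analysis was possible because the columns pool the 2 libraries of a group, and leaving out a replicate was not possible for the same reason. No read depth was given, so the precision of a single FPKM is unknown.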
